A study of Mus musculus with 24 samples.

Results

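The genes described here encode the WNT ligands, their Frizzled receptors and LRP co-receptors, and the secreted proteins that bind either side of the ligand-receptor pair. They were chosen by symbol alone: 19 Wnt genes, 10 Frizzled genes, Lrp5 and Lrp6, 10 secreted modulators (Sfrp1, Sfrp2, Sfrp4, Sfrp5, Frzb, Wif1 and Dkk1 to Dkk4), and Axin2 and Lef1 as 2 readout genes. Together they are 43 of the 37041 genes listed. Levels are in FPKM, which divides a gene's fragments by its transcript length and by the library's mapped total, so levels of different genes can be set side by side per length.

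WNT proteins are secreted, lipid-modified ligands that bind Frizzled receptors. When LRP5 or LRP6 joins the complex, beta-catenin is stabilised and acts with TCF/LEF factors on target genes, whereas other WNTs signal through Frizzled and the ROR kinases without beta-catenin. SFRP, FRZB and WIF1 proteins bind the ligand outside the cell, and most DKK proteins bind LRP5 and LRP6. In fat, beta-catenin signalling by ligands such as WNT10B is known for holding precursors back from adipocyte differentiation, and in muscle WNT proteins act on precursors and on fibre formation.

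RNA sequencing covered 24 libraries in 8 groups of 3. The cells were C2C12, an established line of mouse myoblasts that can fuse into muscle fibres, either as controls or expressing NFIA, a DNA-binding factor of the NFI family. Both kinds were taken on day 0 and on day 7, and also on day 7 with 10 µM forskolin (an activator of adenylyl cyclase that raises cAMP) for the last 4 h. Brown adipose tissue came from wild-type mouse neonates and from neonates labelled NFIA-KO. The sources used here do not give the vector and promoter behind NFIA, the medium between day 0 and day 7, the number of cell clones, the knockout allele, or whether animals were pooled. Nothing says that the 3 libraries of a group came from separate cultures or animals, so p-values measure the spread between these libraries, which may be technical.

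The labels were checked on Nfia itself. Its level was 0.26 to 2.23 FPKM in the 9 control C2C12 libraries and 1252 to 10448 FPKM in the 9 NFIA-expressing libraries. In tissue it was 24.3, 32.8 and 32.6 FPKM in wild-type libraries and 44.6, 40.1 and 39.4 FPKM in the libraries labelled NFIA-KO. All 3 libraries labelled NFIA-KO were thus above the wild-type ones, with a log2 difference of 0.47 ± 0.15 (SE, n = 3 per group; limma adjusted p = 0.0973). A value per gene does not show which exons were read, so this level does not check a deletion of single exons, and the tissue libraries are named by their label throughout.

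Summed FPKM was 762822 to 1575522 per library, and 17304 to 21410 genes were above 0. Values are printed to 2 decimals and read totals are not given, so depth is unknown. Replicates correlated at 0.975 to 0.993 across genes. Defining muscle markers were present in the C2C12 cells: Myod1 was at 12.8 to 17.9 FPKM in control and at 11.5 to 12.7 FPKM in NFIA-expressing cells at day 0, and all 8 skeletal muscle markers averaged 1 FPKM or more at day 7. In both tissue groups all 6 brown adipocyte markers averaged 1 FPKM or more.

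Of the 43 genes, 24 reached a mean of at least 1 FPKM in at least 1 group and 16 reached 5 FPKM. The other 19 stayed below 1 FPKM in all 8 groups: 12 ligands (Wnt1, Wnt2b, Wnt3, Wnt3a, Wnt5b, Wnt6, Wnt7a, Wnt7b, Wnt8a, Wnt8b, Wnt9b and Wnt16), Fzd9, Fzd10, and 5 modulators (Dkk1, Dkk4, Frzb, Sfrp5 and Wif1). None of the 133 cases in which a gene had a group mean of at least 1 FPKM held a library listed at 0. By role, ligands were sparse and receptors plentiful: in control cells at day 0 the ligands summed to 23.5 ± 4.98 FPKM (SD, n = 3), the Frizzled genes to 59.8 ± 4.19 FPKM and the co-receptors to 23.3 ± 0.631 FPKM. The plot of single libraries shows the 16 genes that reached 5 FPKM.

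**Figure D1:**
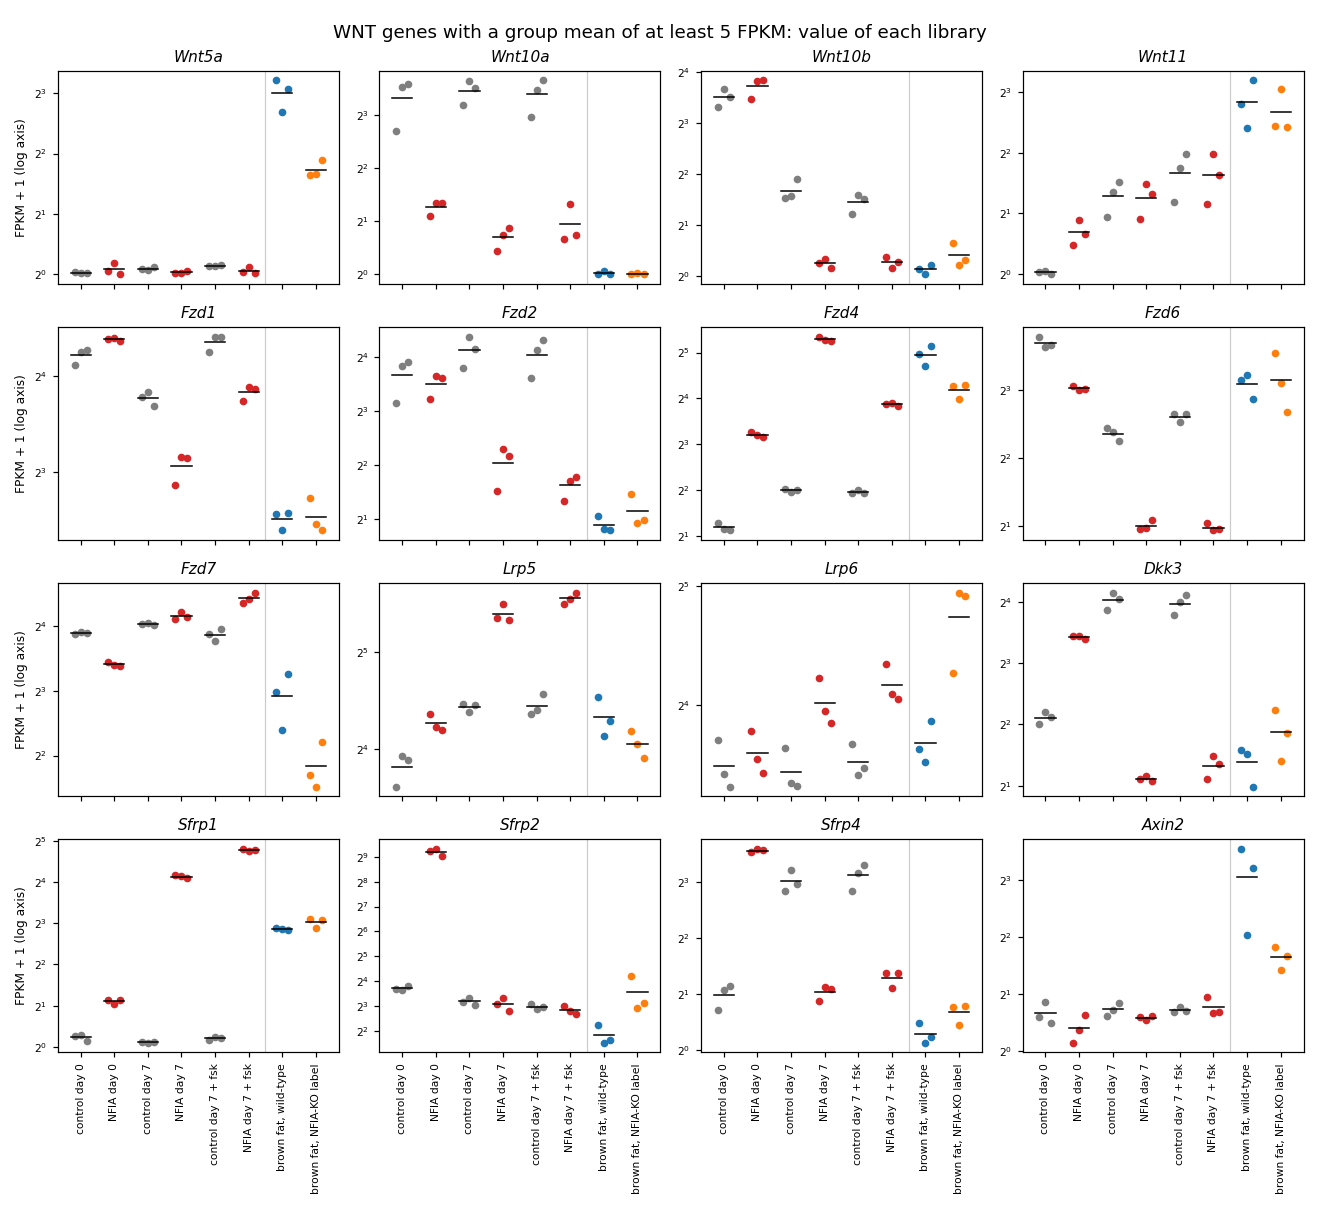
FPKM plus 1 on a log axis for the 16 WNT genes with a group mean of at least 5 FPKM, in the 6 C2C12 groups and the 2 brown adipose tissue groups. Points are the 3 libraries of a group and lines their mean. Sfrp2 stands at 521 to 637 FPKM in NFIA-expressing cells at day 0, Fzd4 and Sfrp1 are high in NFIA-expressing cells at day 7, and Wnt5a and Axin2 are above 1 FPKM in tissue and below it in every C2C12 library.

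Promoters are shown for 3 genes that carry the main contrasts: Sfrp2, which was high with NFIA at day 0 but not at day 7, Fzd4, which was high with NFIA in all 3 C2C12 conditions, and Wnt10b, which fell over time. Each sequence is the 250 bases before the RefSeq start, in the direction of transcription, on GRCm38.p6 (the levels were made on mm9, and the builds' coordinates are not interchangeable). Capitals mark the 5-base core of the NFI binding motif, TTGGC, read on either strand. Sfrp2 lies at chr3:83766071-83766320 on the plus strand, Fzd4 at chr7:89404116-89404365 on the plus strand, and Wnt10b at chr15:98778151-98778400 on the minus strand.
Sfrp2: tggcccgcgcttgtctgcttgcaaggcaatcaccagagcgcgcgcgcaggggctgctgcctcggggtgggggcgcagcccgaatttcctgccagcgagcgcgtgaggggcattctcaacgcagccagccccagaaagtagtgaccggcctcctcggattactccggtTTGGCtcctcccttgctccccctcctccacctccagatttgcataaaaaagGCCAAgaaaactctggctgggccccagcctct
Fzd4: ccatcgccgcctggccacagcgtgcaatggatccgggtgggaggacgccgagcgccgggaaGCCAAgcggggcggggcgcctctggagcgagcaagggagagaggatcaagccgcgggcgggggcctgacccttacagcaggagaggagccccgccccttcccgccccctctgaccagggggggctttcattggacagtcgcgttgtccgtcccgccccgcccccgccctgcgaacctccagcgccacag
Wnt10b: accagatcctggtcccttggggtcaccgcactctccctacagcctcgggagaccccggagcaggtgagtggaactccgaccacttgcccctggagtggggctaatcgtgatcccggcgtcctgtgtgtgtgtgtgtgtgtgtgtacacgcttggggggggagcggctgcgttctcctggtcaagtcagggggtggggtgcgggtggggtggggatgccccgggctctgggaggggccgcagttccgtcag
The Sfrp2 window holds TTGGC at -83 to -79 from the start and its reverse complement at -32 to -28, the Fzd4 window holds the reverse complement at -189 to -185, and the Wnt10b window holds neither. Such short matches are common: TTGGC on either strand was in 13637 of 32851 RefSeq promoters of the same length (41.5%), and in 14 of the 35 promoters that matched 29 of the 43 genes. The full NFI palindrome, TTGGC followed by GCCAA after 5 bases, was in 12 promoters (0.0365%), none of them of these genes. The TCF/LEF core CTTTGAT was in 3.21% of promoters, among them those of Wnt11 and Wnt5b, and the cAMP response element TGACGTCA in 1.55%, with none among these genes. A match of letters is a description and not a bound site.

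Differences were tested as log2(FPKM + 1) with limma, adjusted over all genes tested, and an adjusted p below 0.05 is termed a call. The pseudocount of 1 means that a log2 difference understates the change of a low gene. Of the 43 genes, 21 passed the filter in the C2C12 fit (at least 1 FPKM in at least 3 libraries) and 15 in the tissue fit. The C2C12 comparisons share libraries with each other, so their calls are not independent.

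NFIA-expressing cells differed from control cells in 16 of the 21 tested genes at day 0, 9 higher and 7 lower. Over all 14351 genes tested, 12.1% were called higher and 9.07% lower. At day 7 there were 7 higher and 11 lower, where 26.1% of all genes were called higher and 29.4% lower. With forskolin at day 7 there were again 7 higher and 11 lower, against 28.7% and 32.9% of all genes. The median log2 difference of the tested WNT genes was 0.21 at day 0, -0.44 at day 7 and -0.53 with forskolin, beside 0.02, -0.03 and -0.04 over all genes. The dates in the column headers fall into an earlier set with 1 library of each C2C12 group and a later set with the other 2. Within the later set the 3 counts were 16, 18 and 18, and the earlier set has 1 library per group and allows no test.

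Cell type markers moved with NFIA beside these genes. The 8 skeletal muscle markers summed to 217 to 254 FPKM in control and 130.3 to 142 FPKM in NFIA-expressing cells at day 0 (5 and 2 of 8 at a mean of 1 FPKM or more), and to 5785 to 5869 against 982 to 1294 FPKM at day 7 (8 of 8 in both). The 6 general adipocyte markers summed to 14.9 to 19.9 against 131 to 157 FPKM at day 0 (3 of 6 in both), and to 86.6 to 88.4 against 23202 to 25467 FPKM at day 7 (3 and 6 of 6, with Adipoq, Plin1 and Cidec below 1 FPKM in control cells). The 6 brown adipocyte markers overlapped as a sum on both days, at 59.5 to 108 against 71.2 to 84.3 FPKM at day 7. On that day Dio2 (12.4 to 14.0 against 2.04 to 2.78 FPKM) and Cox7a1 (44.6 to 93.7 against 13.45 to 19.6 FPKM) were lower with NFIA. Cidea (up to 0.17 against 45.0 to 52.1 FPKM), Ppargc1a (0.49 to 0.79 against 4.34 to 5.27 FPKM) and Elovl3 (up to 0.20 against 4.14 to 5.20 FPKM) were higher, and Ucp1 was at 0.13 FPKM or lower. The 7 adipocyte progenitor or fibroblast markers were at 675 to 764 against 1326 to 1392 FPKM at day 0, and at 2600.4 to 2758 against 691 to 825 FPKM at day 7 (5 of 7 in all 4 groups, without Dpp4 and Pi16). The day 7 sum followed the collagens Col1a1 (540 to 649 against 9.94 to 13.2 FPKM) and Col3a1 (1797 to 1903 against 119 to 124 FPKM), whereas Ly6a (172 to 225 against 496 to 628 FPKM) and Cd34 (26.9 to 32.4 against 55.6 to 58.1 FPKM) were higher in NFIA-expressing cells. Smooth muscle and pericyte markers, nearly all of it Acta2, summed to 491 to 593 against 302 to 317 FPKM at day 0 and to 862 to 952 against 194 to 245 FPKM at day 7. Cartilage markers summed to 8.19 to 10.2 against 23.6 to 26.6 FPKM at day 0 and to 4.35 to 5.59 against 21.0 to 29.1 FPKM at day 7, with Acan and Matn1 near 0. Nerve and glia markers (up to 1.16 against 2.52 to 3.96 FPKM on both days) and, at day 7, immune markers (1.27 to 1.89 against 11.2 to 14.1 FPKM) also stood apart, with Sox10 and Ptprc below a mean of 1 FPKM. The part of these marker changes in the WNT results was not tested, and in bulk libraries fewer cells of a type and less RNA per cell cannot be told apart.

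**Figure D2:**
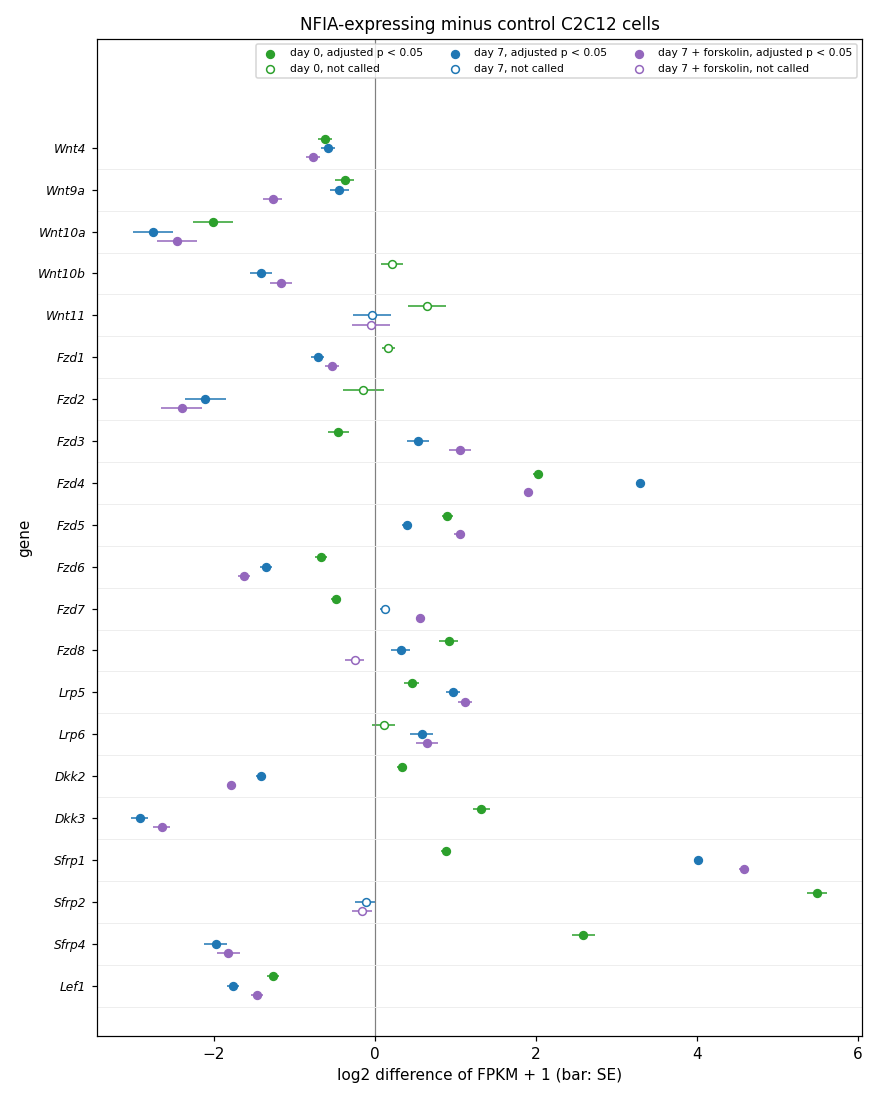
Log2 difference of FPKM plus 1, NFIA-expressing minus control C2C12 cells, for the 21 tested WNT genes at day 0, day 7 and day 7 with forskolin. Bars are standard errors, filled points have an adjusted p below 0.05 and open points do not. Dkk2, Dkk3 and Sfrp4 lie right of 0 at day 0 and left of 0 at day 7, and Fzd4 and Sfrp1 lie right of 0 in all 3 conditions.

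Among the 5 ligands that passed the filter, none was called higher with NFIA in any of the 3 conditions. At day 0, 3 were called lower, and 4 at day 7 and with forskolin (9.07%, 29.4% and 32.9% of all genes). Of these, Wnt4 reached 1 FPKM only in control libraries. Among untested ligands at day 0, Wnt5b was higher with NFIA (0.86, 1.18 and 0.70 against 0.13, 0.14 and 0.36 FPKM). Also without overlap, Wnt1 and Wnt7a were higher and Wnt7b lower, all at 0.34 FPKM or less. The sum of all 19 Wnt genes fell with NFIA from 19.3 ± 3.05 to 5.65 ± 1.10 FPKM (mean and SD, n = 3) at day 7. Wnt10a (mm9 chromosome 1, 74838090 to 74850753), a ligand that like WNT10B acts on adipocyte precursors, was at 5.48, 10.6 and 11.1 FPKM in control cells and at 1.15, 1.54 and 1.55 FPKM in NFIA-expressing cells at day 0. The groups did not overlap, and the mean was 6.40-fold lower with NFIA (log2 difference -2.01 ± 0.25 SE, limma adjusted p = 2.28e-05). At day 7 Wnt10a was at 8.08, 11.5 and 10.3 FPKM in control and 0.36, 0.67 and 0.84 FPKM in NFIA-expressing cells, a log2 difference of -2.75 ± 0.25 (limma adjusted p = 1.57e-07). With forskolin the difference was -2.45. Wnt10a was thus low with NFIA at both times, and in control cells its change between days did not pass the test (0.17 ± 0.25, limma adjusted p = 0.613). In NFIA-expressing cells the change was -0.58 ± 0.25 (adjusted p = 0.0602, or 0.00349 with replicate number as a block).

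Wnt10b (mm9 chromosome 15, 98602184 to 98608581), the ligand best known for holding back adipocyte differentiation, followed another course. At day 0 it was at 9.0, 11.7 and 10.4 FPKM in control cells and at 10.1, 13.2 and 13.2 FPKM in NFIA-expressing cells, which overlap (log2 difference 0.21 ± 0.14, limma adjusted p = 0.349). By day 7 it had fallen in both, to 1.88, 1.99 and 2.74 FPKM in control and to 0.20, 0.27 and 0.12 FPKM in NFIA-expressing cells. The fall was -1.83 on the log2 scale in control cells (limma adjusted p = 3.78e-08) and -3.45 in NFIA-expressing cells (1.23e-11). The 2 cell kinds therefore differed at day 7, by -1.41 ± 0.14 (limma adjusted p = 3.58e-07), and the change in the NFIA difference between days was itself called (-1.62 ± 0.19, adjusted p = 5.87e-06). Its neighbour Wnt1, 11706 bases away on mm9 chromosome 15, stayed below 1 FPKM throughout.

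The other ligands were low in C2C12 cells. Wnt9a, which acts in joint formation, rose from day 0 to day 7 in both cell kinds, from 1.38, 1.98 and 1.90 to 3.05, 3.72 and 3.50 FPKM in control and from 1.08, 1.16 and 1.10 to 1.72, 2.58 and 2.51 FPKM in NFIA-expressing cells. It was called lower with NFIA at each time, and its day 0 call (-0.37, limma adjusted p = 0.0358) was lost in 7 of 17 alternatives, among them leaving out 5 of the 6 libraries compared in turn. Wnt4, a ligand of kidney and reproductive tract development, was called lower with NFIA in all 3 conditions, from 1.11 to 1.43 FPKM in control to 0.45 to 0.51 FPKM at day 0. Wnt11, which signals mostly without beta-catenin, was at 0.02, 0.04 and 0.00 FPKM in control cells at day 0 and at 0.91, 1.56 and 1.86 FPKM at day 7 (log2 difference 1.24 ± 0.23, limma adjusted p = 0.000479). In NFIA-expressing cells it went from 0.40, 0.86 and 0.58 to 0.87, 1.8 and 1.5 FPKM, which did not pass the test (0.56 ± 0.23, adjusted p = 0.0563) but did with replicate number as a block (adjusted p = 0.00409). The day 0 difference between cell kinds, 0.65 ± 0.23, likewise had an adjusted p of 0.0642 without and 0.00342 with the block. At day 7 the Wnt11 levels of the cell kinds overlapped. Wnt5a, the main ligand of the ROR branch, was at 0.14 FPKM or lower in every C2C12 library and was not tested there.

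Among the 8 tested Frizzled receptors, 3 were called higher and 3 lower with NFIA at day 0, and 4 higher and 3 lower at day 7. Over all genes 12.1% were called higher and 9.07% lower at day 0, and 26.1% and 29.4% at day 7. The sum of the Frizzled genes went from 55.7 ± 4.06 to 72.7 ± 1.89 FPKM with NFIA at day 7, with Fzd4 making up 52.5% of it. Fzd4 (mm9 chromosome 7, 96552876 to 96558620), the receptor for Norrin as well as WNTs in retinal vessels, was at 1.43, 1.22 and 1.18 FPKM in control cells at day 0 and at 8.59, 8.20 and 7.92 FPKM in NFIA-expressing cells, 6.45-fold higher (log2 difference 2.02 ± 0.06, limma adjusted p = 5.73e-12). At day 7 it was at 3.06, 2.87 and 3.03 FPKM in control and at 39.7, 37.9 and 36.9 FPKM in NFIA-expressing cells, 12.8-fold higher (3.30 ± 0.06, adjusted p = 1.89e-15). The groups were far apart at both times. The NFIA difference was larger at day 7 than at day 0 by 1.27 ± 0.08 on the log2 scale (limma adjusted p = 8.54e-09). Wild-type brown adipose tissue held Fzd4 at 30.1, 24.9 and 34.4 FPKM, a level set beside the cells without a test.

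Fzd2, Fzd1 and Fzd6 went the other way at day 7. Fzd2, a receptor used by both branches, was at 12.8, 19.7 and 16.7 FPKM in control cells at day 7 and at 1.87, 3.88 and 3.51 FPKM in NFIA-expressing cells (log2 difference -2.11 ± 0.26, limma adjusted p = 4.38e-06). At day 0 its levels overlapped, at 7.87, 13.3 and 14.0 against 8.34, 11.4 and 11.2 FPKM. Fzd6, known from planar polarity of hair follicles, was lower with NFIA at both times: 12.8, 11.4 and 11.7 against 7.32, 6.99 and 7.09 FPKM at day 0, and 4.42, 4.24 and 3.76 against 0.94, 0.96 and 1.14 FPKM at day 7 (-1.35 ± 0.07, adjusted p = 3.03e-10). It also fell over time in each cell kind. Fzd1 was at 16.4, 18.1 and 18.4 against 19.9, 20.1 and 19.6 FPKM at day 0, which did not pass the test (adjusted p = 0.202), and at 12.7, 13.3 and 11.9 against 6.31, 7.95 and 7.85 FPKM at day 7 (-0.71 ± 0.08, adjusted p = 3.06e-06). All 3 receptors were thus lower with NFIA at day 7, in groups that did not overlap.

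Fzd7, a receptor of muscle stem cells, changed direction. It was at 13.7, 13.9 and 13.8 FPKM in control and at 9.92, 9.51 and 9.37 FPKM in NFIA-expressing cells at day 0 (log2 difference -0.48 ± 0.06, limma adjusted p = 2.55e-05). At day 7 it was at 15.3, 15.6 and 15.1 against 16.2, 17.5 and 16.7 FPKM, a difference that did not pass the test (adjusted p = 0.104). With forskolin it was at 13.7, 12.6 and 14.4 against 19.5, 20.4 and 21.8 FPKM, now higher with NFIA (0.56 ± 0.06, adjusted p = 9.24e-07). The change of the NFIA difference from day 0 to day 7 was called at 0.60 ± 0.09 (adjusted p = 3.26e-05). The low receptors Fzd3, Fzd5 and Fzd8 stayed between 0.31 and 3.71 FPKM in all C2C12 libraries. Fzd5 was called higher with NFIA in all 3 conditions, Fzd3 lower at day 0 and higher at day 7 and with forskolin, and Fzd8 higher at day 0 and day 7. With forskolin Fzd8 was at 0.87, 1.06 and 1.10 against 0.56, 0.67 and 0.84 FPKM (-0.25, adjusted p = 0.0772, or 0.00806 with replicate number as a block). The day 0 call of Fzd3 (-0.45, adjusted p = 0.0219) was lost in 6 of 16 alternatives and the day 7 call of Fzd8 (0.32, adjusted p = 0.0307) in 4 of 17, each including single libraries left out.

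Both co-receptors were higher with NFIA at day 7. Lrp5, which is known for setting bone mass, was at 11.2, 14.2 and 13.7 FPKM in control and at 19.5, 17.7 and 17.4 FPKM in NFIA-expressing cells at day 0 (log2 difference 0.46 ± 0.09, limma adjusted p = 0.00136). At day 7 it was at 21.1, 19.9 and 20.9 against 40.0, 44.5 and 39.5 FPKM, 2.0-fold higher (0.97 ± 0.09, adjusted p = 1.75e-07). Lrp6, the co-receptor most needed in the embryo, was at 12.1, 9.74 and 8.98 against 12.8, 10.8 and 9.81 FPKM at day 0, which overlap, and at 11.5, 9.17 and 8.99 against 17.8, 14.5 and 13.5 FPKM at day 7 (0.58 ± 0.14, adjusted p = 0.00241). Their summed level went from 30.5 ± 1.82 to 56.6 ± 3.18 FPKM with NFIA at day 7. The change in the NFIA difference of Lrp6 between days was 0.47 ± 0.20. It did not pass the test without a block (limma adjusted p = 0.0663) but did with replicate number as a block (limma adjusted p = 2.49e-05).

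The secreted modulators showed the widest swings. All 5 that were tested were called higher with NFIA at day 0 (12.1% of all genes). Of these, Sfrp1 reached 1 FPKM only in NFIA-expressing C2C12 libraries, so it passed the filter only through the cells in which it was high. At day 7, 1 was called higher and 3 lower (26.1% and 29.4% of all genes). Sfrp2 (mm9 chromosome 3, 83570243 to 83593878), a secreted protein with a Frizzled-like domain that binds WNTs, was at 11.8, 11.4 and 13 FPKM in control cells at day 0 and at 603, 637 and 521 FPKM in NFIA-expressing cells. The mean was 48.7-fold higher (log2 difference 5.49 ± 0.13, limma adjusted p = 5.95e-13), and Sfrp2 alone made up 96.1% of the summed modulator level in that group. By day 7 it was at 7.99, 9.12 and 7.25 FPKM in control and at 7.52, 8.98 and 5.96 FPKM in NFIA-expressing cells, which overlap (-0.11 ± 0.13, adjusted p = 0.477). Between the days it fell 78.4-fold in NFIA-expressing cells and 1.48-fold in control cells. Gm16790, listed at an overlapping locus, was at 0.00 to 0.20 FPKM in these libraries.

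Sfrp4, another WNT-binding protein, and Dkk3, a divergent DKK family member, crossed over between the days. Sfrp4 was at 0.63, 1.09 and 1.21 FPKM in control and at 10.5, 11 and 10.9 FPKM in NFIA-expressing cells at day 0, 11.1-fold higher (log2 difference 2.59 ± 0.14, limma adjusted p = 2.92e-09). By day 7 it stood at 6.14, 8.25 and 6.79 FPKM in control and at 0.82, 1.18 and 1.12 FPKM in NFIA-expressing cells (-1.98 ± 0.14, adjusted p = 1.09e-08). Control cells thus gained Sfrp4 over the days in which NFIA-expressing cells lost it. Dkk3 was at 3.01, 3.61 and 3.34 against 9.91, 9.91 and 9.53 FPKM at day 0 (1.32 ± 0.10, adjusted p = 1.96e-07) and at 13.7, 16.7 and 15.6 against 1.15, 1.22 and 1.10 FPKM at day 7 (-2.92 ± 0.10, adjusted p = 3.71e-12). Dkk2, which binds the co-receptors, did the same at a lower level, from 1.38 to 1.48 against 2.0 to 2.14 FPKM at day 0 to 3.38 to 3.68 against 0.66 to 0.74 FPKM at day 7. The change in the NFIA difference between days was -4.57 ± 0.20 for Sfrp4, -4.24 ± 0.15 for Dkk3 and -1.75 ± 0.08 for Dkk2, with limma adjusted p of 8.32e-11, 7.64e-12 and 2.58e-10.

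Sfrp1, a WNT-binding protein of the same family, rose where the others fell. It was at 0.20, 0.21 and 0.11 FPKM in control and at 1.21, 1.07 and 1.20 FPKM in NFIA-expressing cells at day 0 (log2 difference 0.88 ± 0.06, limma adjusted p = 2.02e-08). On day 7 its level was 0.09, 0.07 and 0.09 FPKM in control and at 17.0, 16.6 and 16.0 FPKM in NFIA-expressing cells (4.02 ± 0.06, adjusted p = 1.47e-16). Sfrp1 made up 61.4% of the summed modulator level in NFIA-expressing cells at day 7, where at day 0 that share belonged to Sfrp2. Dkk3 held the largest share in control cells at day 7, at 43.5%. The modulators that filled each group's sum therefore differed, while the sums themselves were 35.3 ± 3.34 FPKM in control and 26.9 ± 1.83 FPKM in NFIA-expressing cells at day 7.

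Lef1, a transcription factor that works with beta-catenin and is itself a target of the pathway, was at 4.14, 4.26 and 3.68 FPKM in control and at 1.25, 0.93 and 1.09 FPKM in NFIA-expressing cells at day 0 (log2 difference -1.27 ± 0.08, limma adjusted p = 1.08e-08). By day 7 it stood at 3.49, 3.35 and 3.44 against 0.31, 0.23 and 0.38 FPKM (-1.76 ± 0.08, adjusted p = 3.98e-11). The groups were apart at both times. Axin2, the feedback inhibitor that serves as the general readout of beta-catenin signalling, was at 0.93 FPKM or lower in all 18 C2C12 libraries and was not tested there.

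Over the 7 days, control cells had 7 of the 21 tested genes called higher and 5 lower, where 24.9% of all genes were called higher and 23.9% lower. NFIA-expressing cells had 7 higher and 12 lower, against 27.5% and 29.4% of all genes. In control cells Sfrp4, Dkk3, Dkk2, Lrp5, Fzd4, Wnt9a and Wnt11 rose, and Wnt10b, Fzd6, Fzd1, Sfrp2 and Wnt4 fell. Of these, Lrp5, Fzd4 and Wnt9a rose and Wnt10b, Fzd6, Fzd1, Sfrp2 and Wnt4 fell in NFIA-expressing cells too, whereas Dkk3, Dkk2 and Sfrp4 rose in control and fell in NFIA-expressing cells. The split of the control comparison depends on scaling: over all genes 3579 were higher and 3434 lower (51% higher), and after quantile normalization 2983 and 4541 (39.6% higher), with the median of all genes at 0.02 and -0.11. The WNT counts went from 7 higher and 5 lower to 7 and 9 there. With replicate number as a block, Fzd2 (0.47, limma adjusted p = 0.000519), Fzd7 (0.14, 0.0374) and Lef1 (-0.18, 0.0388) were also called in control cells. Within the later set of header dates 13 were called in control and 21 in NFIA-expressing cells.

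The interaction of NFIA with day asks whether the NFIA difference changed between days. It was called in 16 of the 21 tested genes. In 5 the signed log2 difference was higher at day 7 than at day 0 and in 11 it was lower, where 19.8% and 25.5% of all genes were called. The sign is that of the change and not of its size: for Fzd4, Sfrp1 and Lrp5 a positive difference grew, for Fzd3 it went from -0.45 to 0.54 and for Fzd7 from -0.48 to 0.12, and for Fzd6 and Lef1 a negative difference became more negative. The calls of Fzd5 and Fzd8 were lost under quantile normalization, at -0.16 and -0.25 (limma adjusted p = 0.154 and 0.147). Without the filter on low values 25 were called, and within the later set of header dates 18.

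With forskolin, 2 of the 21 tested genes were called higher and 2 lower in control cells, where 1.92% and 2.06% of all genes were called. In NFIA-expressing cells 4 were higher and 4 lower, against 15.7% and 16.9% of all genes. Fzd4 in NFIA-expressing cells was at 39.7, 37.9 and 36.9 FPKM without forskolin and at 13.6, 13.9 and 13.3 FPKM after it, 2.80-fold lower (log2 difference -1.42 ± 0.06, limma adjusted p = 1.84e-10). In control cells it was at 3.06, 2.87 and 3.03 against 2.84, 3.01 and 2.86 FPKM, which overlap (-0.03 ± 0.06, adjusted p = 0.993). The difference between these responses was called (-1.39 ± 0.08, limma adjusted p = 2.92e-08).

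Fzd1 was called higher with forskolin in both cell kinds, from 12.7, 13.3 and 11.9 to 18.1, 20.3 and 20.3 FPKM in control and from 6.31, 7.95 and 7.85 to 12.4, 13.8 and 13.5 FPKM in NFIA-expressing cells. The log2 differences were 0.59 ± 0.08 and 0.77 ± 0.08 (limma adjusted p = 0.000626 and 5.28e-06), and whether they differ did not pass the test (0.18 ± 0.12, adjusted p = 0.340). Sfrp1 rose in NFIA-expressing cells from 17.0, 16.6 and 16.0 to 26.9, 26.2 and 26.3 FPKM, 1.6-fold (0.65 ± 0.06, adjusted p = 6.26e-07), and was at 0.17 FPKM or lower in the control libraries with forskolin. Fzd5 fell in control cells from 1.61, 1.63 and 1.56 to 0.78, 0.72 and 0.77 FPKM, and in NFIA-expressing cells was at 2.31, 2.52 and 2.46 without and 2.60, 2.62 and 2.70 FPKM with forskolin, which did not pass the test. Fzd3 and Fzd7 rose and Fzd8 and Wnt9a fell in NFIA-expressing cells. With replicate number as a block Fzd2 (-0.39, limma adjusted p = 0.00315), Lrp6 (0.15, 0.0113) and Dkk3 (0.21, 0.0412) were called there too. Lef1 fell in both cell kinds, from 3.35 to 3.49 to 2.0 to 2.24 FPKM in control, a call (adjusted p = 0.00105) that was lost with a pseudocount of 0.1 (adjusted p = 0.113). Its call in NFIA-expressing cells was at levels of 0.05 to 0.38 FPKM and was lost in 8 of 16 alternatives.

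The response to forskolin differed between cell kinds in 7 of the 21 genes, 3 higher and 4 lower in NFIA-expressing cells, where 10.5% and 9.61% of all genes were called. These were Sfrp1, Fzd5 and Fzd7 (higher) and Fzd4, Wnt9a, Fzd8 and Dkk2 (lower). The call of Sfrp1 (0.56 ± 0.08) was lost with a pseudocount of 0.1, where it was 0.23 (adjusted p = 0.510), and the control level is near 0. The call of Dkk2 (-0.37) was lost with the later set of libraries alone (adjusted p = 0.0547). The call of Fzd8 was lost in 6 of 23 alternatives, each leaving out 1 library. Within the later set of header dates forskolin called 3 genes in control and 9 in NFIA-expressing cells, and 10 differed between them.

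**Figure D3:**
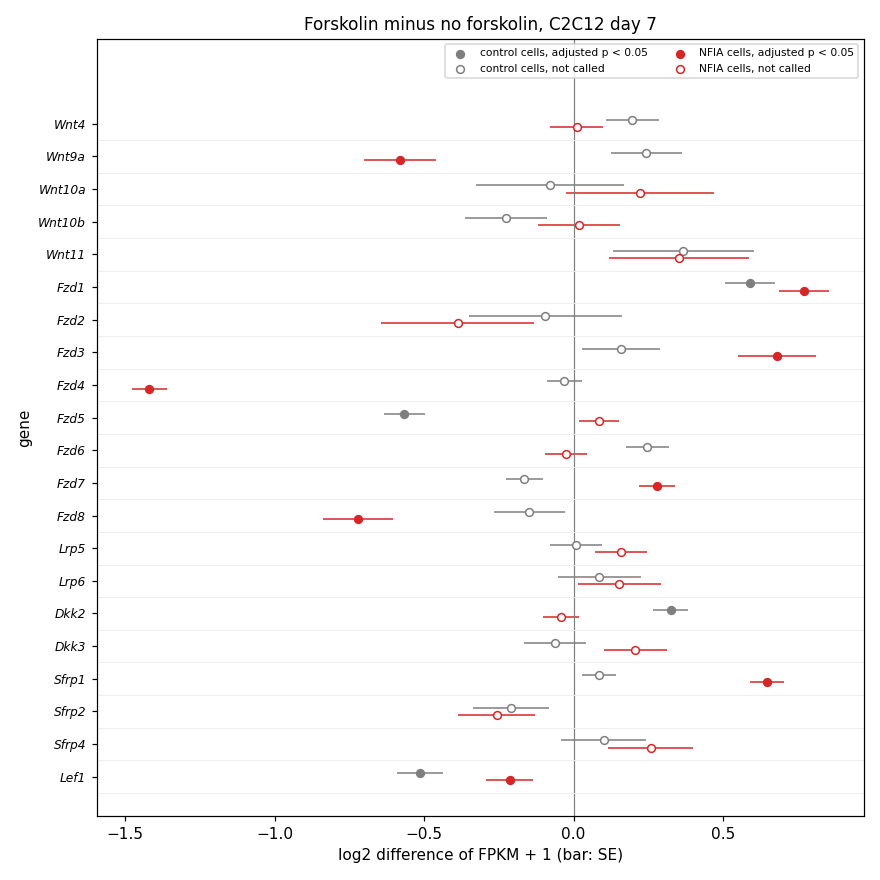
Log2 difference of FPKM plus 1, day 7 with forskolin minus day 7 without, for the 21 tested WNT genes in control and NFIA-expressing C2C12 cells. Bars are standard errors, filled points have an adjusted p below 0.05 and open points do not. Fzd4 in NFIA-expressing cells lies farthest from 0, at -1.42, with Fzd4 of control cells at -0.03.

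In neonatal brown adipose tissue, 4 of the 15 tested genes were called between the libraries labelled NFIA-KO and the wild-type libraries, 2 higher and 2 lower, where 3.59% of 13618 genes were called higher and 3.55% lower. Wnt5a and Fzd4 were lower and Lrp6 and Sfrp2 higher in the libraries labelled NFIA-KO, whose Nfia level was not reduced. The median log2 difference of the 15 genes was 0.00, beside -0.02 over all genes. The 4 calls rest on few libraries: leaving out wild-type library 1, wild-type library 3 or NFIA-KO library 2 left 0 called (6, 6 and 7 at an unadjusted p below 0.05), and over all genes left 19, 53 and 109 called. Leaving out NFIA-KO library 1 left Lrp6 alone and leaving out NFIA-KO library 3 left Wnt5a alone, and without wild-type library 2 Axin2, Wnt5a, Fzd7 and Fzd4 were called, all lower.

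Marker sums also differed between the tissue groups without overlap. The 8 skeletal muscle markers summed to 51.8 to 107 FPKM in wild-type libraries and to 209 to 1151 FPKM in those labelled NFIA-KO, with 7 of 8 averaging 1 FPKM or more in both groups and Myod1 at 0.49 FPKM or lower. The 6 brown adipocyte markers summed to 7923 to 11855 against 5277 to 6711 FPKM. Ucp1 (4073 to 7240 against 1445 to 1674 FPKM), Cox7a1 and Elovl3 were lower in each library labelled NFIA-KO, Ppargc1a was higher (10.8 to 27.8 against 34.3 to 44.7 FPKM), and Cidea and Dio2 overlapped. The 5 nerve and glia markers summed to 16.2 to 29.2 against 6.03 to 11.55 FPKM (3 and 2 of 5 averaging 1 FPKM or more, without Sox10 and Elavl4). The 4 smooth muscle and pericyte markers summed to 76.4 to 90.9 against 57.0 to 73.3 FPKM (4 and 3 of 4), and the 5 epidermis markers to 2.45 to 3.03 against 1.07 to 1.41 FPKM (1 of 5 in both, with Krt5 and Krt14 below 1). Endothelial markers (304 to 364 against 249.8 to 316 FPKM) and adipocyte progenitor or fibroblast markers (422 to 662 against 628 to 1120 FPKM) overlapped as sums. Among the endothelial markers Kdr (74.25 to 86.9 against 39.4 to 61.5 FPKM) and Cdh5 (116 to 134 against 87.4 to 113 FPKM) did not overlap, whereas Pecam1, Tek and Emcn did. Among the progenitor or fibroblast markers Pdgfra (4.93 to 6.77 against 7.38 to 10.8 FPKM) and Pi16 (1.47 to 2.09 against 3.45 to 7.02 FPKM) did not overlap, and the rest did. General adipocyte markers overlapped too, at 3286 to 26243 against 15763 to 19267 FPKM, the lowest being a wild-type library with Fabp4 listed at 0. The median and highest wild-type sums, 23956 and 26243 FPKM, were above every sum labelled NFIA-KO. Adipoq was lower in each library labelled NFIA-KO (842 to 894 against 652 to 812 FPKM), and Plin1, Cidec, Lpl and Pparg overlapped. The part of the marker lists in the tissue results was not tested. A fit with the mean log2 level of the muscle markers as a term was chosen after seeing the data. In it none of the 15 genes was called (4 at an unadjusted p below 0.05), and 1 of 13618 genes was. That mean was 2.11, 2.08 and 2.76 in wild-type libraries and 5.51, 3.57 and 4.74 in those labelled NFIA-KO. The groups do not overlap in it, so this fit cannot separate the muscle markers from the label.

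Wnt5a (mm9 chromosome 14, 29317936 to 29340633) was at 8.26, 5.43 and 7.36 FPKM in wild-type libraries and at 2.11, 2.17 and 2.70 FPKM in those labelled NFIA-KO. All 3 of the latter were lower, by 3.02-fold in the mean (log2 difference -1.26 ± 0.18, limma adjusted p = 0.0217), and the value was -1.32 with muscle markers as a term (adjusted p = 0.581). Ror2, the kinase receptor of WNT5A, was the sole gene called among the 34 tested in tissue from a list of 56 other pathway genes. Over all 13618 genes tested in tissue, 3.59% were called higher and 3.55% lower. Ror2 was at 5.89, 4.83 and 2.64 against 0.83, 1.15 and 0.60 FPKM (log2 difference -1.51 ± 0.26, limma adjusted p = 0.0290). For Ror2, no result with a library left out or with muscle markers as a term is given here. A link between the Ror2 and Wnt5a differences was not tested. Wnt11, the other ligand above 5 FPKM in tissue, was at 5.99, 4.33 and 8.12 against 4.45, 7.28 and 4.37 FPKM, which overlap. The overlapping gene Gm2670 was listed at 0 in all 6 tissue libraries.

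Fzd4 was at 30.1, 24.9 and 34.4 FPKM in wild-type libraries and at 18.4, 14.7 and 18.7 FPKM in those labelled NFIA-KO, 1.73-fold lower (log2 difference -0.75 ± 0.16, limma adjusted p = 0.0438), and -1.23 with muscle markers as a term (adjusted p = 0.547). It was the most abundant Frizzled gene of the tissue, at 54.5% of their sum in wild-type libraries. Lrp6 was at 11.4, 10.5 and 13.6 against 18.3, 29.8 and 29.2 FPKM, 2.18-fold higher (1.04 ± 0.21, adjusted p = 0.0408), while Lrp5 overlapped at 22.2, 16.6 and 18.6 against 17.2, 15.5 and 13.9 FPKM. Sfrp2 was at 3.75, 1.86 and 2.10 against 17.7, 6.58 and 7.79 FPKM, 4.16-fold higher (1.63 ± 0.37, adjusted p = 0.0464). The library with the most Sfrp2 was NFIA-KO library 1, which also had the highest muscle marker sum, and with muscle markers as a term the Sfrp2 difference was 0.48 (adjusted p = 0.860).

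Fzd7 and Axin2 did not pass the test although their groups did not overlap. Fzd7 was at 6.90, 4.26 and 8.60 FPKM in wild-type libraries and at 2.25, 1.87 and 3.62 FPKM in those labelled NFIA-KO (log2 difference -1.07 ± 0.27, limma adjusted p = 0.0594). Axin2 was at 10.7, 3.10 and 8.28 against 2.57, 1.69 and 2.18 FPKM (-1.29 ± 0.38, adjusted p = 0.0784), and wild-type library 2 was the nearest to the other group. Gm11670, which overlaps Axin2, was at 1.22, 0.25 and 1.36 against 0.24, 0.16 and 0.44 FPKM, and strand use in the counting is not given in the sources used here. Sfrp1 overlapped at 6.20 to 6.45 against 6.44 to 7.65 FPKM, as did Fzd6 at 6.31 to 8.28 against 5.38 to 10.7 FPKM, Fzd1 at 4.27 to 4.96 against 4.26 to 5.63 FPKM, and Dkk3, Fzd3, Fzd5 and Fzd8. Wnt2, a ligand of lung development that was listed at 0 in all C2C12 libraries, was at 0.33, 0.06 and 0.09 against 4.20, 0.62 and 0.85 FPKM and did not pass the filter.

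**Figure D4:**
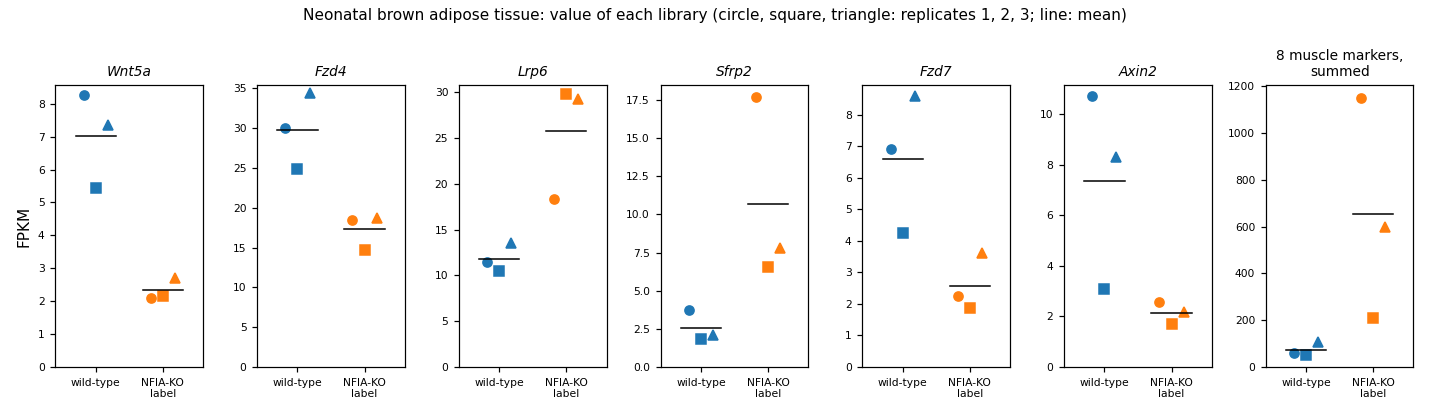
FPKM in each of the 3 wild-type and 3 NFIA-KO labelled brown adipose tissue libraries for the 4 called genes (Wnt5a, Fzd4, Lrp6, Sfrp2), for Fzd7 and Axin2, and for the sum of 8 skeletal muscle markers. Circles, squares and triangles are replicates 1, 2 and 3 and lines the means. The groups do not overlap in any panel, and the circle of the NFIA-KO label is highest for Sfrp2 and for the muscle markers.

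Fzd4 and Sfrp2 are the 2 genes with calls in both the tissue and the day 0 comparison of the cells. Fzd4 was lower in the libraries labelled NFIA-KO (-0.75) and higher in NFIA-expressing cells at day 0 (2.02), and Sfrp2 was higher in both (1.63 and 5.49). Lrp6 was higher in both tissue (1.04) and cells at day 7 (0.58). The tissue and the cells differ in more than NFIA, and these values were not tested against each other.

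Further genes of the pathway came from a list of 56, drawn up by function with earlier results of these data known, of which 38 were tested in C2C12 cells. With NFIA, 8 were called higher and 9 lower at day 0 (12.1% and 9.07% of all genes), 12 higher and 17 lower at day 7 (26.1% and 29.4%), and 7 higher and 21 lower with forskolin (28.7% and 32.9%). Their median log2 difference was -0.01, -0.15 and -0.33, beside 0.02, -0.03 and -0.04 over all genes. At day 0, Wisp2, a matricellular protein, was higher (1.69 ± 0.19, limma adjusted p = 6.41e-06), as were the planar polarity gene Prickle2 (1.48) and the receptor Ror1 (0.86), and the R-spondin receptor Lgr4 (-1.35) and the Dishevelled inhibitor Nkd2 (-1.26) were lower. At day 7, Wisp1, a beta-catenin target, was at 35.5, 31.2 and 31.4 FPKM in control and at 2.83, 2.55 and 2.31 FPKM in NFIA-expressing cells (-3.24 ± 0.11, adjusted p = 1.61e-12). Lgr6 (-2.16), the TCF/LEF factor Tcf7 (-2.02) and Tnfrsf19 (-1.89) were also lower, and the beta-catenin cofactor Bcl9l was higher, at 36.4, 43.8 and 38.9 against 9.59, 9.23 and 7.82 FPKM (2.04 ± 0.12, adjusted p = 7.84e-10). With forskolin the largest were Wisp1, Ptk7, Nkd2, Tcf7 and Lgr6, all lower with NFIA by 1.79 to 2.40 on the log2 scale.

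Over time 11 of the 38 rose and 11 fell in control cells (24.9% and 23.9% of all genes), and 10 rose and 13 fell in NFIA-expressing cells (27.5% and 29.4%). Porcn, the enzyme that adds the lipid to WNT proteins, rose in both, from 2.60, 5.20 and 4.35 to 34.6, 49.0 and 44.7 FPKM in control (log2 difference 3.14 ± 0.24, limma adjusted p = 5.49e-08) and from 3.07, 4.19 and 4.02 to 22.7, 38.6 and 32.2 FPKM in NFIA-expressing cells (2.73 ± 0.24, adjusted p = 1.34e-07). Wisp1 fell in NFIA-expressing cells (-3.21). In control cells it was also lower at day 7, at 35.5, 31.2 and 31.4 FPKM against 55.75, 42.1 and 42.0 FPKM at day 0. With forskolin 2 were called higher and 3 lower in control cells (1.92% and 2.06% of all genes), with Wisp1 (-0.80) and Tnfrsf19 (-0.69) the largest, and 2 higher and 5 lower in NFIA-expressing cells (15.7% and 16.9%), with Bcl9l the largest at -1.40. In the interaction of NFIA with day the signed difference moved up in 5 and down in 17 (19.8% and 25.5% of all genes), and in that with forskolin up in 3 and down in 7 (10.5% and 9.61%).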

How the data were processed

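Per the labels, polyadenylated RNA was purified with Trizol and RNeasy and sequenced from stranded TruSeq libraries. The authors deposited FPKM values, and the submitters' processing notes name TopHat, Cufflinks and mm9. The sources used here give no program versions and no annotation.

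Each table holds 37305 entries. Entries of one symbol at overlapping loci were summed, which removed 264 and left 37041 genes (for Fzd10, 2 entries were joined). All 43 genes matched by gene ID and symbol.

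Log2(FPKM + 1) was fitted with limma 3.58.1 in R 4.3.3 with a variance trend, the 18 C2C12 libraries in 1 fit and the 6 tissue libraries in another, on genes with at least 1 FPKM in at least 3 libraries. Tests are two-sided, with Benjamini-Hochberg adjustment over all genes tested in a comparison. The procedure was tested on simulated data. Replicate numbers were compared across groups, the C2C12 libraries without a number counting as the first. Same-numbered libraries correlated above 0.1 in their deviations from group means in all 3 pairs of 5 of the 8 comparisons of 2 groups (not NFIA at day 7, forskolin in control cells, or tissue). The pairing there comes from the data and not from a stated design, and a call that the block changed is given beside its result. In C2C12 cells number 1 is the earlier set of header dates. The median correlation was 0.33 for number 1, 0.12 for number 2 and 0.13 for number 3. Libraries 2 and 3 could correlate across numbers too, as at 0.229 for control library 3 with NFIA library 2 at day 0. The block thus includes the header date, and pairing was not separated from it.

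The members, the marker and pathway lists and the tests were chosen with earlier results of these data known. Members with a group mean of at least 5 FPKM and a call are given in full. Of the other pathway genes at most 5 per comparison are named, those called without overlap between groups and with the largest change. The alternatives changed the pseudocount to 0.1, dropped the filter or the variance trend, rescaled by quantiles or by median of ratios, set zeros to missing where the group reached 100 FPKM, left entries unmerged, added a replicate block, and fitted only the groups compared, only the 12 numbered C2C12 libraries, or all but 1 library. Header date as a term and muscle markers as a term were chosen after seeing the data.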

Additional observations from a re-analysis of the deposited data

Results flagged for a closer look

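The NFIA difference changed between day 0 and day 7 in 16 WNT genes by an interaction test (limma, adjusted p below 0.05). On the log2 scale, as day 7 minus day 0, the change was -1.62 for Wnt10b, -0.88 for Fzd1, -1.96 for Fzd2, 0.99 for Fzd3, 1.27 for Fzd4, -0.50 for Fzd5, -0.68 for Fzd6, 0.60 for Fzd7, -0.60 for Fzd8 and 0.51 for Lrp5. Those of Fzd5 and Fzd8 did not pass under quantile normalization (-0.16 and -0.25). Among modulators and readout genes it was -1.75 for Dkk2, -4.24 for Dkk3, 3.14 for Sfrp1, -5.61 for Sfrp2, -4.57 for Sfrp4 and -0.49 for Lef1. The 2 changes above 4 units other than that of Sfrp2 belong to genes that were higher with NFIA at day 0 and lower at day 7.

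The forskolin response differed between NFIA-expressing and control cells in 7 WNT genes by the same kind of test. As NFIA minus control it was -0.82 for Wnt9a, -1.39 for Fzd4, 0.65 for Fzd5, 0.44 for Fzd7, -0.57 for Fzd8, -0.37 for Dkk2 and 0.56 for Sfrp1. That of Dkk2 did not pass with the numbered libraries alone, that of Sfrp1 with a pseudocount of 0.1, and that of Fzd8 without any 1 of 6 libraries.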

How the results depend on the processing

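Of 122 calls of a WNT gene in a comparison, 105 held under every alternative run, 17 were lost under at least 1, and 0 reversed. Leaving out each library in turn gave 14 to 15 called genes for NFIA at day 0 (16 with all), 17 to 18 at day 7 (18), 18 in every case with forskolin (18), 12 to 13 over time in control cells (12), 18 to 19 in NFIA-expressing cells (19), 4 in every case for forskolin in control cells (4), 7 to 8 in NFIA-expressing cells (8), 16 to 17 for the interaction with day (16), 6 to 8 for that with forskolin (7) and 0 to 4 in tissue (4). Without the filter 25 genes were called for the interaction with day (16 with it), among more genes tested. In tissue 0 were called without the filter (10 at an unadjusted p below 0.05 in limma, 40 genes called of 24244) and 0 with muscle markers as a term, and the cause was not tested.

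In C2C12 cells 13 of 18 libraries and in tissue 4 of 6 were closest to their own replicate number. With a replicate block the counts were 17, 18 and 19 for NFIA at day 0, day 7 and with forskolin, 15 and 21 over time, 5 and 11 for forskolin, 19 and 9 for the interactions, and 5 in tissue, and the block lost no call. With header date as a term in its place, the C2C12 counts in the same order were 18, 18 and 19, 15 and 21, 5 and 11, and 19 and 10. Where the numbers did not meet the rule for pairing, the block added Fzd6 for forskolin in control cells and Fzd7 in tissue. The rule was not applied to the interactions. There the block added Wnt11, Wnt10a and Lrp6 for that with day, and Fzd6 and Lef1 for that with forskolin. Depth is unknown, so values near 0 FPKM carry a counting error that cannot be given.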

Other observations

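Wnt6 and Wnt10a lie 6196 bases apart on mm9 chromosome 1, and Wnt10a reached 11.6 FPKM in a C2C12 library where Wnt6 stayed at 0.93 FPKM or lower in all 24. Wnt3a and Wnt9a lie 16175 bases apart on chromosome 11, and Wnt9a reached 4.67 FPKM while Wnt3a stayed at 0.01 FPKM or lower. Wnt9b and Wnt3, 24328 bases apart on the same chromosome, were both below 1 FPKM in every library.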
